A study of Bos taurus with 6 samples.

Results

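The genes described here build the 3 kinds of contact that hold neighbouring epithelial cells together and let them exchange small molecules: tight junctions, desmosomes and gap junctions. Members were picked by a rule on gene symbols that uses no expression value, but the rule was written with earlier results of these data known. The symbols taken were the numbered claudins (CLDN), zonula occludens proteins (TJP), desmogleins (DSG), desmocollins (DSC), plakophilins (PKP) and connexins (GJA to GJE), together with OCLN, MARVELD2, MARVELD3, F11R, DSP and JUP. This gave 62 of the 32183 gene entries in the expression tables, of which 29 belonged to the tight junction, 13 to the desmosome and 20 to the gap junction.

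RNA was sequenced from rumen epithelial primary cells (REPC), which are cells grown in culture from the inner lining of the rumen, the large fermentation chamber of the cattle stomach. All cultures derived from 1 Holstein bull calf of 2 weeks of age that had received only milk replacer, and the series holds 3 control cultures and 3 cultures given 5 mM butyrate for 24 h. Butyrate is a short-chain fatty acid made by rumen microbes and an inhibitor of histone deacetylases. The study's methods call the 3 cultures of a condition biological replicates, but a single animal stands behind all of them, so the p-values below measure the spread between cultures and not between calves.

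Tight junctions seal the gap between cells near the surface that faces the lumen, and their claudins decide which ions may pass. Desmosomes rivet cells to each other through cadherins that are anchored, by plaque proteins, to the keratin filaments. Connexins form the channels of gap junctions. The rumen is lined by a stratified epithelium that takes up short-chain fatty acids. There the tight junctions help keep the microbes and acids of the lumen apart from the blood.

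Expression is given as FPKM, the fragments mapped to a gene scaled by transcript length and library size, a level per length that can be set side by side between genes. Changes are log2 fold changes of butyrate over control on the scale log2(FPKM + 0.1), with their standard error (SE), from limma. The text says that a gene rose or fell only where its Benjamini-Hochberg adjusted p over the 15813 genes tested was under 0.05. A differentially expressed gene (DEG) had, by the thresholds of the study, a Bonferroni-corrected p under 0.05 and a change beyond 2 on the log2 scale.

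Of the 62 junction genes, 18 were listed at 0 in every culture and 10 more had a mean FPKM under 0.1, so 34 could be tested. Of these 34, 21 rose after butyrate, 6 fell and 7 did not pass the test. Among all genes tested, 32.5% rose and 25.9% fell, so that the share of tested junction genes that rose, 61.8%, lay above the share among all genes, whereas the share that fell, 17.6%, lay below it. The median change of the tested junction genes was 0.63, beside 0.10 for all genes tested. A gene can pass the filter on low values through its butyrate cultures alone, and GJA3, GJD3, CLDN10, CLDN11 and CLDN23 did so, as CLDN15 did through its controls. Among the 28 junction genes whose mean FPKM reached 0.1 in both groups, 16 rose and 6 fell, beside 30.8% and 28% of all such genes, and the median change was 0.54 beside 0.04.

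The upregulated DEGs were GJB6, CLDN4 and PKP1, while 2.46% of all genes tested were upregulated DEGs. Thus the strict thresholds found 1 upregulated gene in each kind of junction. In 22 of the 34 tested junction genes all 3 butyrate cultures lay above all 3 controls (36.1% of all genes tested), and in 7 they all lay below (28.9%). A change of at least 1 on the log2 scale with an adjusted p under 0.05 was found, in either direction, for 14 of the 34, beside 25.2% of all genes tested. These counts include the genes tested through 1 group alone. Of the 28 junction genes whose mean reached 0.1 in both groups, 9 had such a change, beside 3185 of all 14345 such genes. In 17 of the 28 all butyrate cultures lay above all controls (4912 of the 14345), and in 6 they all lay below (4465).

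**Figure D1:**
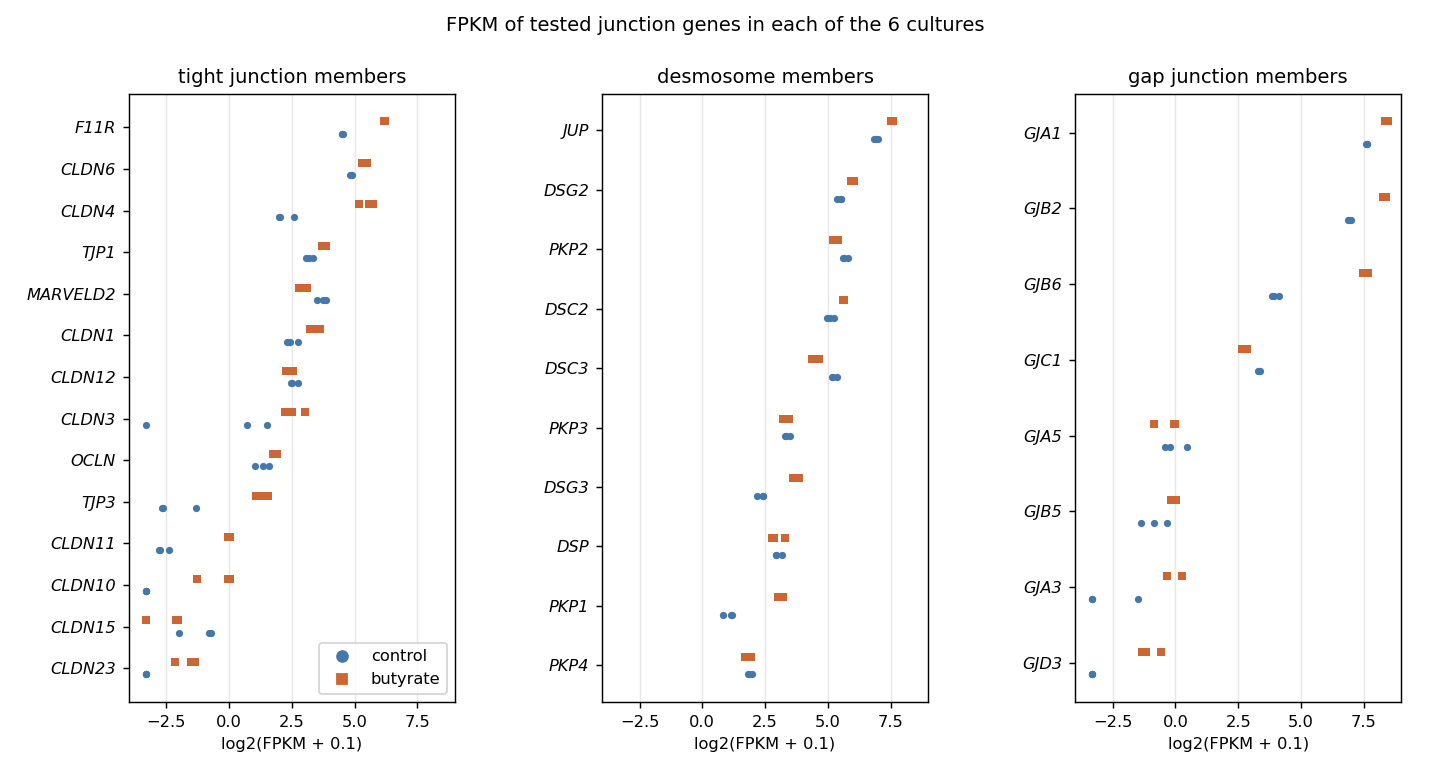
Level of tested junction genes in each of the 6 cultures, as log2(FPKM + 0.1), with a blue circle for each control culture and an orange square for each butyrate culture. Genes are ordered by their mean FPKM within each kind of junction, and GJA1, GJB2 and JUP had the highest levels, while CLDN10, CLDN23 and GJD3 lay at the lowest value of the scale in all 3 controls.

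Among 15 tested tight junction genes, 11 rose, 2 fell and 2 did not pass, while 32.5% of all genes tested rose and 25.9% fell. Among the 11 whose mean FPKM reached 0.1 in both groups, 8 rose, 2 fell and 1 did not pass. Of all such genes, 30.8% rose and 28% fell. Claudins are the membrane proteins that form the seal itself. CLDN1, CLDN3, CLDN4 and CLDN6 rose among the 5 claudins that reached this level in both groups, and CLDN10, CLDN11 and CLDN23, which were tested only through their butyrate values, rose as well. Summed over the 22 claudin entries, FPKM was 46.7 ± 3.48 (SD, n = 3) in control and 111 ± 13.8 (SD, n = 3) in butyrate cultures. The order of the claudins also changed, from one gene far above the others to a pair at similar levels. Both this order and the claudin sum include CLDN6, whose level is uncertain for the reason given below.

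CLDN6, a claudin known from embryonic epithelia, was the claudin with the highest level in control cultures, at an FPKM of 28.9, 27.9 and 29.4 in controls 1 to 3 and of 41.1, 44.6 and 39.3 in butyrate cultures 1 to 3. The 3 butyrate cultures all lay above the controls, and the change was 0.53 (SE 0.07; limma, adjusted p = 0.000158). The entry of CLDN6 (chromosome 25, positions 2435180 to 2438490, UMD3.1) shares 473 bases with TNFRSF12A, which had a mean FPKM of 682 in control and fell to 135. Whether the fragments were counted by strand is not given in the sources used here, so the level of CLDN6 is uncertain. It also shares 200 bases with CLDN9, whose FPKM was at most 9.3e-08 in any culture.

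CLDN4 encodes a sealing claudin that limits the passage of sodium between cells. Its FPKM was 5.90, 3.92 and 4.01 in the controls and 46.9, 53.2 and 36.0 in the butyrate cultures. The groups were far apart, with the lowest butyrate culture above the highest control by a wide margin, and CLDN4 stood at 9.85 times its control mean. The change was 3.28 (SE 0.19; limma, Bonferroni-adjusted p = 0.00108). Of the summed claudin FPKM, CLDN4 made up 9.85% ± 2.07 (SD, n = 3) in control and 40.5% ± 2.98 in butyrate cultures, whereas the share of CLDN6 was 61.8% ± 3.17 and 37.6% ± 2.51. These shares depend on the uncertain level of CLDN6. The Bonferroni p of CLDN4 went above 0.05 when 1 culture was left out, at 0.0558 without control 2, 0.0739 without control 3, 0.243 without butyrate 1 and 0.205 without butyrate 2, while its change stayed between 3.16 and 3.47.

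CLDN3, another sealing claudin, lies on chromosome 25 next to CLDN4, with 28.79 kb and no other entry between them. Its FPKM was 1.55, 0 and 2.71 in the controls and 4.59, 7.94 and 5.62 in the butyrate cultures. All butyrate cultures lay above the controls, but the 3 controls were widely spread and one of them was listed at 0. The change was 2.95 (SE 1.06; limma, adjusted p = 0.0395), and it was 1.48 (adjusted p = 0.00742) without control 2, the culture at 0. The adjusted p was 0.0601 without control 1, 0.113 without butyrate 1, 0.161 without butyrate 2 and 0.124 without butyrate 3.

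CLDN11, best known from myelin and the testis, had very low levels in controls, with an FPKM of 0.0456, 0.0489 and 0.0915. It reached 0.924, 0.867 and 0.911 in the butyrate cultures, which lay close together and far above the controls. The change was 2.64 (SE 0.32; limma, adjusted p = 0.000139). The confidence bounds of these values correspond to about 1 to 2 fragments per control culture and 17 to 18 per butyrate culture.

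CLDN10, which forms ion-selective pores between cells, was listed at 0 in all 3 controls and at 0.307, 0.878 and 0.924 in the butyrate cultures (limma, adjusted p = 0.000756). CLDN23 was likewise listed at 0 in every control and reached 0.247, 0.289 and 0.125 (limma, adjusted p = 0.0134). No fold change is given for these claudins because every control was at 0. Their bounds correspond to at most 5 fragments in any culture, so both remained at the edge of what this depth can measure.

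Of the other tested claudins, CLDN1, which is required for the barrier of the skin, rose from 5.56 ± 0.9001 (SD, n = 3) to 10.9 ± 1.62, a change of 0.96 (SE 0.15; limma, adjusted p = 0.000725). CLDN12 did not pass the test, with a change of -0.17 and a 95% confidence interval from -0.47 to 0.13. CLDN15, a cation-pore claudin of the intestine, did not pass either, at a change of -1.32 with an interval from -2.55 to -0.08 (limma, adjusted p = 0.0645), although its 3 butyrate cultures, at most 0.147, all lay below its controls. The adjusted p of CLDN15 was 0.0292 without control 1 and 0.0315 in a fit blocked by replicate number. The remaining 13 claudins were not tested. CLDN2, CLDN7, CLDN14, CLDN16, CLDN17, CLDN18, CLDN20, CLDN25 and CLDN34 were listed at 0 in all cultures, and CLDN5, CLDN8, CLDN9 and CLDN19 did not exceed an FPKM of 0.366 in any.

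The tight junction has other membrane proteins besides claudins. F11R, which encodes junctional adhesion molecule A, had the highest level of all tight junction genes after butyrate. Its FPKM was 22.8, 22.9 and 22.5 in the controls and 72.2, 74.9 and 73.3 in the butyrate cultures. Within each group the cultures barely differed, and the butyrate mean was 3.23 times the control mean. The change was 1.69 (SE 0.05; limma, adjusted p = 8.02e-08). F11R was not a DEG because its change did not reach 2.

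The MARVEL-domain proteins moved in opposite directions. OCLN (occludin) rose from 2.43 ± 0.468 (SD, n = 3) to 3.39 ± 0.191, a change of 0.48 (SE 0.18; limma, adjusted p = 0.0446). MARVELD2 (tricellulin), which seals the corners where 3 cells meet, fell from 13.0 ± 1.498 to 7.63 ± 0.796, a change of -0.76 (SE 0.12; limma, adjusted p = 0.000731). The entries of this pair lie 41.22 kb apart on chromosome 20 with none between them. The call of OCLN was lost when any culture other than control 1 was left out (adjusted p from 0.0866 to 0.127) and after quantile normalization (adjusted p = 0.243). MARVELD3 was listed at 0 in the controls and reached at most 0.204, too low to be tested.

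Under the membrane, the zonula occludens proteins tie claudins and occludin to actin. TJP3 had an FPKM of 0.0579, 0.0628 and 0.304 in the controls and of 2.01, 2.81 and 2.47 in the butyrate cultures. Every butyrate culture was well above every control, and the change was 3.52 (SE 0.40; limma, adjusted p = 9.4e-05). It missed the Bonferroni threshold at 0.276. The bounds of TJP3 correspond to about 0.3, 0.3 and 3.1 fragments in controls 1 to 3 and 33.4 to 55.7 in the butyrate cultures. Controls 1 and 2 lay under an FPKM of 0.1, so the size of the change is uncertain. TJP1, the most studied of these scaffolds, rose from 9.03 ± 0.960 (SD, n = 3) to 13.9 ± 1.01, a change of 0.62 (SE 0.11; limma, adjusted p = 0.00107). The entry of TJP1 shares 1546 bases with the unnamed gene LOC107131608, which rose from 1.31 to 2.71. The level of TJP1 is therefore uncertain if strand was not used in counting.

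**Figure D2:**
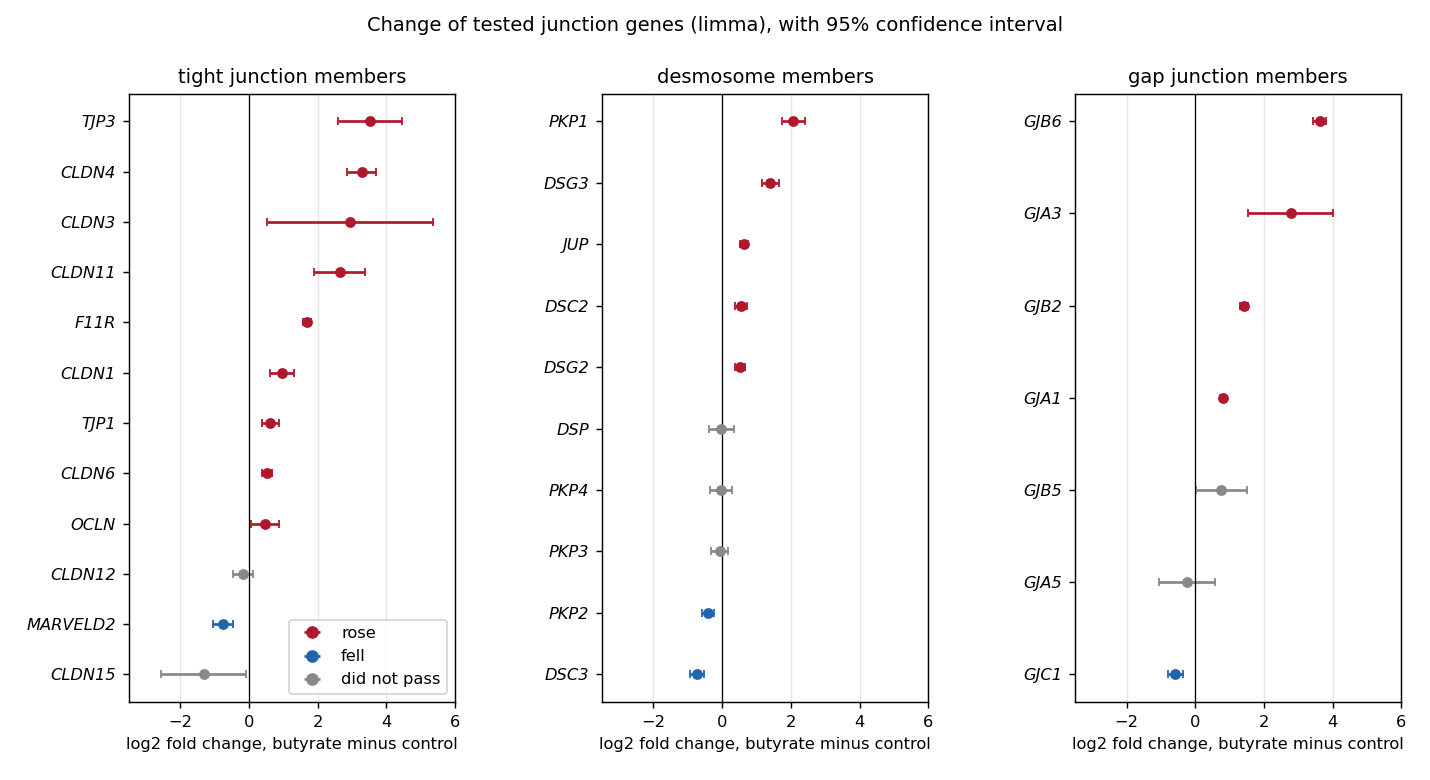
Log2 fold change of butyrate over control from limma, with its 95% confidence interval, for tested junction genes, without CLDN10, CLDN23 and GJD3, which were at 0 in every control. Red points rose, blue points fell and grey points did not pass the test, and the widest interval, from 0.54 to 5.37, is that of CLDN3.

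Among 10 tested desmosome genes, 5 rose, 2 fell and 3 did not pass, while 32.5% of all genes tested rose and 25.9% fell. All 10 reached a mean FPKM of 0.1 in both groups, and 30.8% of all such genes rose and 28% fell. The median change of the 10 was 0.24, beside 0.62 for the 11 tight junction and 0.76 for the 7 gap junction genes that reached this level. These medians were not tested against each other. The summed FPKM of the 13 desmosome entries was 318 ± 5.71 (SD, n = 3) in control and 407 ± 8.78 in butyrate cultures, or 1.28 times the control level. For comparison, the sum was 2.39 times the control level for claudins and 2.32 times for connexins.

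The adhesive part of the desmosome consists of desmogleins and desmocollins. DSG2, the desmoglein of simple epithelia, had the highest level among them, at 46.1, 45.8 and 41.5 in the controls and 62.8, 66.7 and 60.8 in the butyrate cultures. The groups did not overlap, and the change was 0.51 (SE 0.06; limma, adjusted p = 0.000164). DSG3, a desmoglein of the lower layers of stratified epithelia and a target of autoantibodies in pemphigus, had 5.23, 4.47 and 5.26 in the controls and 12.3, 14.3 and 13.6 in the butyrate cultures. The butyrate cultures all stood well above the controls, and the change was 1.41 (SE 0.11; limma, adjusted p = 1.02e-05). The entry of DSG3 lies within that of the unnamed gene LOC101904557, which rose from 0.919 to 1.76, so its level is uncertain if strand was not used in counting.

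The desmocollins went opposite ways. DSC2 rose from 34.2 ± 3.34 (SD, n = 3) to 50.1 ± 0.892, a change of 0.55 (SE 0.08; limma, adjusted p = 0.000286), and DSC3, which marks the basal layers of stratified epithelia, fell from 38.0 ± 3.02 to 22.8 ± 2.07, a change of -0.73 (SE 0.09; limma, adjusted p = 0.000133). Thus DSC3 was slightly above DSC2 in control and below it in every butyrate culture, with a ratio of DSC2 to DSC3 of 0.902 ± 0.0553 and 2.21 ± 0.234, a pair picked after their values were seen. DSC3 made up 31.2% ± 1.31 of the summed desmosomal cadherins in control and 15.3% ± 1.56 in butyrate cultures. DSG1 and DSC1, the forms of the outer layers of skin, were at 0 in the controls. DSG1 was also at 0 after butyrate, DSC1 reached at most 0.132, and DSG4, known from the hair follicle, at most 0.0242.

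Among the plaque proteins, JUP (plakoglobin), which binds the cadherin tails in desmosomes and in adherens junctions, was the desmosome gene with the highest level. Its FPKM was 114, 121 and 127 in the controls and 190, 181 and 195 in the butyrate cultures. All butyrate cultures were above all controls, and the change was 0.64 (SE 0.05; limma, adjusted p = 1.42e-05). The entry of JUP (chromosome 19, positions 42602485 to 42628705) shares 5680 bases with FKBP10, which rose from 161 to 222, and fragments from the shared part can be told apart only if strand was used.

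Plakophilins link the cadherin tails to desmoplakin. PKP1, the plakophilin of the upper layers of stratified epithelia, had 2.11, 2.17 and 1.68 in the controls and 7.97, 8.74 and 9.31 in the butyrate cultures. The butyrate cultures lay at 4.37 times the control mean, and the groups did not overlap. The change was 2.08 (SE 0.15; limma, Bonferroni-adjusted p = 0.00614). Its change is just past the DEG threshold of 2, and the DEG call of PKP1 was lost when any single culture was left out, with a Bonferroni p between 0.0580 and 0.588. Its adjusted p stayed under 0.05 in all of these fits. PKP2, the plakophilin of simple epithelia and of heart muscle, fell from 51.3 ± 3.46 (SD, n = 3) to 38.5 ± 2.92, a change of -0.41 (SE 0.08; limma, adjusted p = 0.00155). PKP1 made up 2.95% ± 0.376 of the summed plakophilins in control and 14.3% ± 0.751 in butyrate cultures, and PKP2 made up 76.3% ± 2.22 and 63.6% ± 0.153.

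The other plaque genes did not pass the test. The change was -0.07 for PKP3 (95% confidence interval from -0.31 to 0.16), -0.04 for PKP4 (-0.35 to 0.28) and -0.03 for DSP (-0.38 to 0.33), and all of them turned positive, at 0.05, 0.08 and 0.10, when FPKM was rescaled to the same sum per culture. DSP encodes desmoplakin, which ties the plaque to keratin filaments, and its level was 7.96 ± 0.845 (SD, n = 3) in control and 7.90 ± 1.66 in butyrate cultures. These intervals leave room for small changes in either direction.

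**Figure D3:**
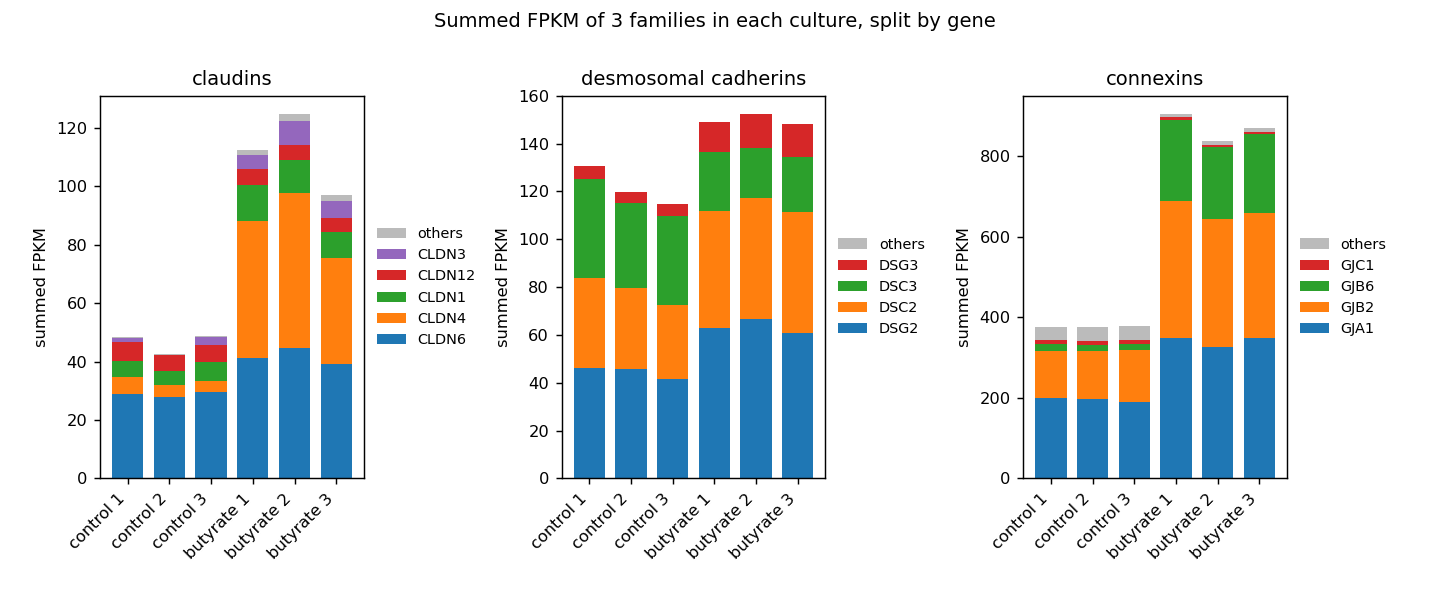
Summed FPKM of the claudins, the desmosomal cadherins and the connexins in each culture, with each bar split into selected genes and all others of the family in grey. The connexin sum was 374 to 377 in the controls and 837 to 904 in the butyrate cultures, and the added height came mostly from GJB6, GJB2 and GJA1.

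The connexins held the highest levels of the junction genes, as well as the DEG with the largest rise, GJB6. Of 9 tested, 5 rose, 2 fell and 2 did not pass, while 32.5% of all genes tested rose and 25.9% fell. Of the 7 whose mean FPKM reached 0.1 in both groups, 3 rose and 2 fell, beside 30.8% and 28% of all such genes. Summed over 20 entries, connexin FPKM was 376 ± 1.32 (SD, n = 3) in control and 870 ± 33.4 in butyrate cultures. GJA1, GJB2 and GJB6 made up most of it.

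GJA1, the most widely expressed connexin, had 199, 196 and 191 in the controls and 349, 326 and 348 in the butyrate cultures. The cultures of a group were close to each other and the groups did not overlap. The change was 0.81 (SE 0.04; limma, adjusted p = 9.97e-07). Nevertheless, GJA1 made up 51.9% ± 1.16 (SD, n = 3) of connexin FPKM in control and 39.2% ± 0.714 in butyrate cultures.

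GJB6 and GJB2 encode the connexins of the inner ear and skin whose mutations are known from inherited deafness. GJB6 had 17.1, 15.1 and 14.3 in the controls and 202, 176 and 196 in the butyrate cultures. Every butyrate culture exceeded every control by a wide margin, and the mean was 12.4 times that of the controls, the largest such ratio among junction genes whose controls averaged 1 or more. The change was 3.62 (SE 0.08; limma, Bonferroni-adjusted p = 4.94e-07), and GJB6 remained a DEG in every alternative tried. GJB2 had 117, 119 and 128 in the controls and 338, 318 and 310 in the butyrate cultures. All butyrate cultures stood above all controls, at 2.65 times their mean, and the change was 1.41 (SE 0.05; limma, adjusted p = 1.64e-07). GJB6 made up 4.13% ± 0.380 of connexin FPKM in control and 22.0% ± 0.833 in butyrate cultures, whereas the share of GJB2 was 32.3% ± 1.47 and 37.0% ± 1.22.

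GJC1, a connexin of heart and smooth muscle, fell from 9.87 ± 0.285 (SD, n = 3) to 6.56 ± 0.448, a change of -0.58 (SE 0.10; limma, adjusted p = 0.000944).

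Connexins with low levels were measured with less precision. GJA3, known from the lens, had 0.257, 0 and 0 in the controls and 0.701, 1.10 and 1.09 in the butyrate cultures, so the groups did not overlap and the change was 2.77 (SE 0.54; limma, adjusted p = 0.00222). Its bounds correspond to fewer than 5 fragments in any culture. GJD3 was listed at 0 in the controls and at 0.342, 0.575 and 0.293 in the butyrate cultures (limma, adjusted p = 0.00157), which corresponds to between 6 and 13 fragments. GJB5 did not pass, at a change of 0.76 with a 95% confidence interval from 0.02 to 1.501 (limma, adjusted p = 0.073), although its butyrate cultures all lay above the controls. It was called without control 1 (change 1.02, adjusted p = 0.0265) and when FPKM was rescaled to the same sum (change 0.91, adjusted p = 0.0485). GJA5 did not pass, at -0.24 (-1.05 to 0.56), a value that turned to 0.01 without control 3 and 0.04 without butyrate 1. GJA4, GJB1, GJB7, GJC3, GJD2 and GJD4 were listed at 0 in all cultures, and GJA9 and GJA10 did not exceed 0.146.

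Many junction genes lie next to each other in the genome, which the choice by symbol did not use, and neighbours were compared. On chromosome 12, GJB6 (positions 36310090 to 36318424), GJB2 (36335916 to 36340958) and GJA3 (36362507 to 36374319) follow each other with gaps of 17.49 and 21.55 kb and no other entry between them, and all 3 rose. GJA3 was tested only through its butyrate values, and its bounds correspond to at most 4.4 fragments in any culture. The share that rose among all genes tested was 32.5%. Not every group of neighbours is described here, and whether neighbours changed together was not tested.

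On chromosome 24 the 4 desmogleins lie in the order DSG2, DSG3, DSG4 and DSG1, followed by the desmocollins in the order DSC1, DSC2 and DSC3. DSG2 and DSG3, which are 13.59 kb apart, both rose, while DSC2 and DSC3, 17.64 kb apart, moved in opposite directions. CLDN4 (positions 33988115 to 33989662) and CLDN3 (34018456 to 34019670) on chromosome 25 both rose.

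**Figure D4:**
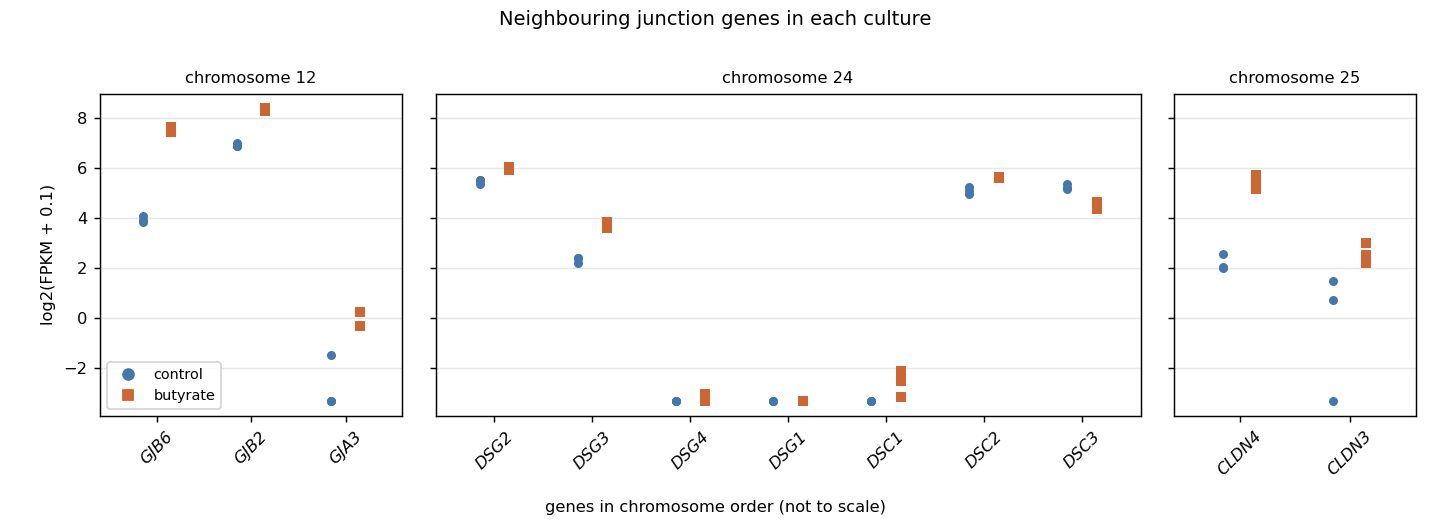
Level of junction genes that are neighbours on chromosomes 12, 24 and 25, as log2(FPKM + 0.1) in each of the 6 cultures, with genes in chromosome order and not to scale. Blue circles are control and orange squares butyrate cultures, and all genes of the chromosome 12 row are higher after butyrate, while DSC3 on chromosome 24 is lower.

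The genes that work with these junctions were taken from 5 lists set by textbook role, which hold 53 genes, of which 49 were tested. Of them 24 rose, 4 fell and 21 did not pass, a share of 49% that rose and 8.16% that fell. The shares among all genes tested were 32.5% and 25.9%, which also stand beside the counts by list below. The 4 that fell were YBX3, PRKCI, PANX1 and SYMPK, the last of which is named only because its value was seen, and the number was 2 without control 1, control 2, butyrate 2 or butyrate 3.

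Of 21 tested scaffold and polarity genes of the tight junction, 9 rose and 3 fell. CGNL1 (paracingulin), which links the junction to the cytoskeleton, rose from 0.393 ± 0.0966 (SD, n = 3) to 2.25 ± 0.252, a change of 2.27 (limma, adjusted p = 7.66e-05), and MAGI1, a scaffold with several protein-binding domains, rose by 1.67 (limma, adjusted p = 0.00038). YBX3, a nucleic acid-binding partner of TJP1, had the largest fall, from 458 ± 19.95 to 272 ± 11.9, a change of -0.75 (limma, adjusted p = 3.02e-06), and PRKCI, the atypical protein kinase C of the polarity complex, changed by -0.43 (limma, adjusted p = 0.00011).

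Among 7 other tight junction membrane proteins tested, 5 rose and 2 did not pass. JAM2, a relative of F11R, had 4.24, 4.39 and 4.07 in the controls and 21.2, 23.7 and 21.0 in the butyrate cultures, a change of 2.35 (limma, adjusted p = 2.21e-07). ESAM, an adhesion molecule known from endothelium, was listed at 0 in all controls and had 3.14, 4.64 and 1.97 in the butyrate cultures (limma, adjusted p = 6.08e-06). Both were upregulated DEGs, but ESAM passed the filter on low values only through its butyrate cultures.

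Of 15 adherens junction genes, 7 rose. CDH1 (E-cadherin), the defining cadherin of epithelial cells and one of the epithelial markers, did not pass, with 49.8 ± 1.49 (SD, n = 3) in control and 48.9 ± 2.11 in butyrate cultures. CTNNA2, the alpha-catenin of the nervous system, rose from 0.309 ± 0.0651 to 2.60 ± 0.642 (limma, adjusted p = 4.73e-05), and CDH3 (P-cadherin) rose from 0.886 ± 0.265 to 2.15 ± 0.503 (limma, adjusted p = 0.0048). Of the 4 tested partners of desmosomes, PPL (periplakin) and EVPL (envoplakin), which build the cornified envelope, rose by 1.26 and 1.19 (limma, adjusted p = 6.84e-05 and 9.71e-05). The pannexins, which form channels related to those of connexins, split, with PANX2 higher by 1.86 (limma, adjusted p = 0.00135) and PANX1 changed by -0.68 (limma, adjusted p = 0.0129). The call of PANX1 was lost without control 1, control 2, butyrate 2 or butyrate 3 (adjusted p from 0.0604 to 0.0641).

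**Figure D5:**
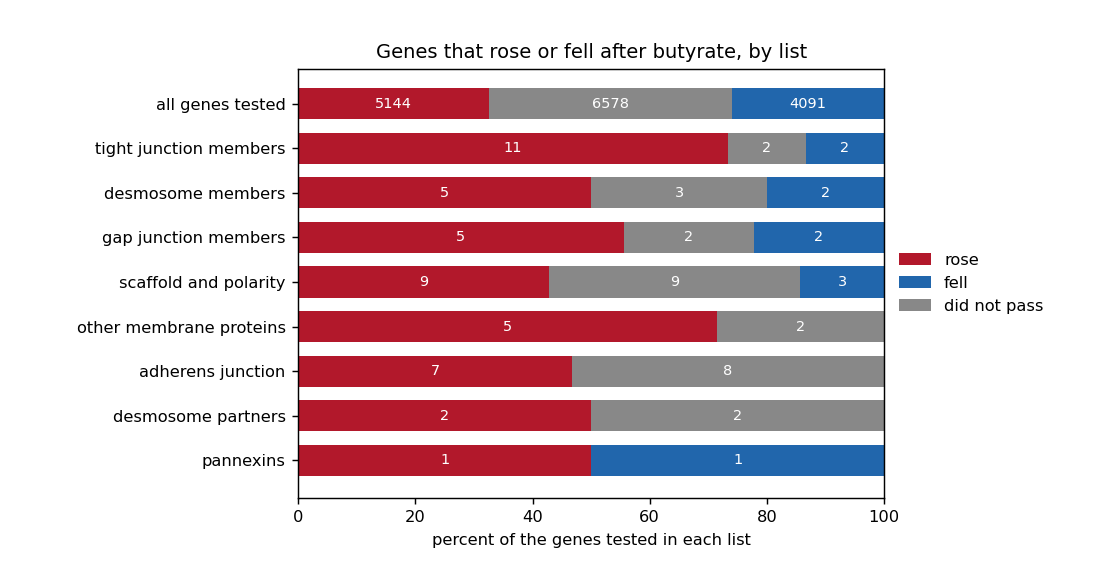
Share of the tested genes that rose (red), did not pass (grey) or fell (blue) after butyrate in all genes tested, in each kind of junction and in each of the 5 lists of other junction genes, with the number of genes written in each bar. The share that rose was 32.5% among all genes, 73.3% among tight junction, 50% among desmosome and 55.6% among gap junction members, counts that include CLDN10, CLDN11, CLDN23, GJA3 and GJD3, which were tested only through their butyrate values.

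Among 9 tested transcription factors known to act on junction genes, 6 rose, beside 32.5% of all genes tested. ELF3, an epithelial factor of the ETS family, had 1.25, 0.490 and 1.54 in the controls and 40.9, 44.6 and 32.7 in the butyrate cultures, a change of 5.16 (limma, adjusted p = 3.44e-06). TWIST1, known as a repressor of E-cadherin, had the next largest rise of the list, from 0.227 ± 0.206 (SD, n = 3) to 1.02 ± 0.308, a change of 2.04 (limma, adjusted p = 0.0168). The change was 1.33 without control 1, and the adjusted p was 0.0728 without butyrate 1 and 0.0851 without butyrate 2.

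The label of the cells was compared with marker lists. Beside the marker counts below stand the shares among all genes tested, of which 32.5% rose and 25.9% fell. Epithelial markers summed to an FPKM of 6188 to 6470 in the controls and 8901 to 9217 in the butyrate cultures, with 7 of 10 that rose and 1 that fell, and EPCAM, a defining marker of simple epithelia, was at 0.540 ± 0.174 (SD, n = 3) and 3.33 ± 0.581. Fibroblast markers, led by VIM and COL1A1, were also high, at 4458 to 4606 and 6492 to 6827, and 9 of 9 tested rose. Smooth muscle markers summed to 6914 to 7253 and 3238 to 3890. Of the 7, 5 fell, 1 did not pass and DES rose, from 0.367 to 1.60 (limma, adjusted p = 0.0074). The defining MYH11 and DES, however, did not exceed 1.89 in any culture. Endothelial markers summed to 2.10 to 2.42 and 6.98 to 9.25 (2 of 3 tested rose), with CDH5 at 0 in every culture. Immune markers summed to 6.75 to 7.89 and 12.4 to 14.2 (2 of 3 tested rose), with PTPRC at 0. Schwann and glia markers summed to 8.11 to 10.4 and 23.0 to 24.2 (1 of 3 tested rose). The 9 tested fibroblast markers rose and 5 of 7 smooth muscle markers fell alongside the changes of junction genes of all 3 kinds. The part of these markers in the results was not tested. In RNA from a whole culture, fewer cells of a type and less RNA per cell cannot be told apart.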

How the data were processed

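RNA-seq was performed on 3 control and 3 butyrate-treated REPC cultures. The authors trimmed the reads with Trim Galore 0.4.1, aligned them with STAR, kept uniquely mapped reads and ran Cufflinks, whose FPKM per gene they deposited together with confidence bounds, on UMD3.1 per the submitters' processing notes. The study names an Ensembl release for its annotation files, whereas the deposited tables carry RefSeq-style sequence names and symbols. The versions of STAR and Cufflinks and the use of strand are not given in the sources used here. The tables hold no counts, so no count test was run. FPKM summed to 678035 to 681912 per control culture and to 619401 to 629037 per butyrate culture. Relative depth, estimated from genes whose bounds correspond to 1 fragment, was 0.928 to 1. The bounds give only approximate fragments, and an FPKM of 0 means listed at 0. Start positions were counted from 0 in the tables and are given from 1. Chromosome names came from RefSeq's gene table (assembly ARS-UCD2.0), where 22388 of 22716 matched symbols lay on the same chromosome.

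FPKM was log2-transformed after adding 0.1, which makes the changes of weakly expressed genes look smaller, and moderated by empirical Bayes with a trend in limma 3.58.1 (R 4.3.3). The 15813 genes whose FPKM averaged 0.1 or more entered one fit, which was tested on simulated data. Samples were grouped by their labels. A single gene compared by exact permutation of 3 against 3 cultures cannot go below p = 0.1, so no such test is given. Sums and shares over several genes carry no test.

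Values in every culture are given for junction genes with an adjusted p under 0.05, a change of at least 1 and groups that did not overlap, and for the 2 genes with the highest mean FPKM of each junction. From each list of other genes the 2 largest rises and falls were taken. The junction genes and lists were chosen with earlier results of these data known. Results for some junction and marker genes are not reported here, although sums and counts include them. Alternatives were other pseudocounts, filters and scalings, no trend, a replicate block, failed estimates kept and each culture left out.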

Additional observations from a re-analysis of the deposited data

How the results depend on the processing

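The number of junction genes that rose was 16 to 23, and the number that fell 6 or 7, over all alternatives, beside 21 and 6. The fewest rose at a minimum mean FPKM of 1, where 8 tight junction and 3 gap junction genes rose, beside 11 and 5. CLDN10, CLDN11, CLDN23, GJA3 and GJD3 were then not tested. Rescaling FPKM to the same sum in each culture (TPM) moved the median change of all genes from 0.10 to 0.24, and quantile normalization moved it to -0.05, with 23 and 18 junction genes that rose. Under TPM the log2 ratio of summed FPKM was 0.48 for desmosome and 1.33 for connexin genes, beside 0.36 and 1.21, and PKP3, PKP4 and DSP turned positive, at 0.049, 0.085 and 0.097. With 1 culture left out, 1 to 2 junction genes were upregulated DEGs, and 2 to 3 of the other junction genes fell. In these fits PKP4 ranged from -0.078 to 0.037, DSP from -0.19 to 0.084 and GJA5 from -0.43 to 0.037, so that each changed sign. PKP1 was no DEG with a pseudocount of 1, without the filter, without the trend, after quantile normalization or with the block, and CLDN4 was none without the trend (limma, Bonferroni-adjusted p = 0.231). CLDN3 was not called with a pseudocount of 0.01 (adjusted p = 0.0976), without the filter (0.0896), without the trend (0.106) or after quantile normalization (0.0502), nor was OCLN without the filter (0.0651). After quantile normalization CLDN23 was not called (adjusted p = 0.19), while CLDN15 was (0.00421). The cause of these shifts was not tested. Deviations of same-numbered cultures from their group means correlated at 0.0228, -0.00431 and 0.00177 across genes, so no shared effect of replicate number was seen. This does not settle whether the cultures were set up in pairs. With the replicate block 21 junction genes rose, 7 fell and 2 were upregulated DEGs. Fold changes of genes with an FPKM under 1 follow the pseudocount, as for TJP3, at 3.52 and, with a pseudocount of 1, at 1.59.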
